A study of Mus musculus with 11 samples.

Results

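The dystrophin glycoprotein complex was followed through 8 of its genes, Sgca, Sgcb, Sgcd, Sgce, Dag1, Sntb1, Dmd and Utrn, in differentiated and undifferentiated C2C12 cells. These genes were taken as every probe of the signal table whose annotated gene symbol is 1 of the 8, which gave 14 probes of the 25697 on the array and 8 of its 16593 gene symbols. C2C12 is a line of mouse myoblasts that leave the cell cycle and fuse into multinucleated myotubes when serum is withdrawn. For the Day 6 samples (n = 5), growth medium was replaced by DMEM with 2% horse serum and the cells were kept in it for 6 days, and the Day 0 samples (n = 5) were undifferentiated cells of the same line, which is grown in DMEM with 20% fetal bovine serum. The design text gives separate experiments for the 5 samples of a day. All cultures come from a single line, without the matrix, nerve or load that a muscle fibre has in an animal.

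In muscle fibres this complex spans the plasma membrane and connects the actin cytoskeleton with the basement membrane. Dystrophin (Dmd), or its relative utrophin (Utrn), binds actin inside the cell and dystroglycan (Dag1) at the membrane, and dystroglycan carries sugar chains that bind laminin outside. The sarcoglycans (Sgca, Sgcb, Sgcd, Sgce) are membrane glycoproteins that assemble beside dystroglycan, and the syntrophins (such as Sntb1) are adaptors on the inner face that hold signalling proteins. In humans, loss of dystrophin causes Duchenne muscular dystrophy and loss of a muscle sarcoglycan causes a limb-girdle muscular dystrophy.

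The RNA of 10 samples was read on 1-colour Illumina arrays (MouseRef-8 v2.0), which give each probe a signal and a detection p, the chance of such a signal from a negative control. The RNA of Day 0 replicate 5 was put on a repeat array too, so that 11 arrays were used, and the mean of its arrays was taken. Median signals lay between 57.2 and 64.3 on the Day 6 arrays and between 56.6 and 62.7 on the Day 0 arrays. Values below are log2 signals after background correction and quantile normalization. A probe was tested where it was detected (detection p under 0.05) in at least 3 samples of 1 day, and the brightest tested probe on average stood for its gene. This gave 12753 tested probes in 8659 genes. Day 0 replicate 5 stood apart: its correlation with the other Day 0 samples reached at most 0.949, against at least 0.965 among the others. Each label also names 1 of E1 to E4. What these stand for is not stated, and each of the 4 holds samples of both days. The label checks followed the named days, with Day 6 minus Day 0 log2 changes of 4.28 for the myogenic factor Myog, 4.95 for muscle creatine kinase (Ckm) and -2.83 for the mitotic topoisomerase Top2a. In bulk RNA, fewer cells of a type and less RNA per cell cannot be told apart.

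The transcripts of α-sarcoglycan, β-sarcoglycan, dystroglycan and β1-syntrophin were higher at Day 6 than at Day 0. The fold was 19.5 for Sgca, 3.74 for Sgcb and 3.38 for Dag1, and Sntb1 was detected in all 5 Day 6 samples but in only 1 of 5 Day 0 samples, so its fitted fold of 2.80 is set against signals at background. δ-Sarcoglycan (Sgcd) was near the detection limit and did not pass the test, and the probes of dystrophin, utrophin and ε-sarcoglycan (Sgce) gave no signal above the negative controls at Day 6. Of the 8 genes, 5 were tested: 4 were called higher, 0 lower and 1 was not called (limma, adjusted p under 0.05). Over all genes tested, 21.1% were called higher and 24.2% lower, and the median log2 change was -0.03. Of the 14 probes, 10 were tested and 8 of them were called higher, where 20.5% of all probes tested were higher and 23.8% lower. In the same 8 probes every Day 6 sample lay above every Day 0 sample, a separation seen in 14.7% of all probes tested, and the exact permutation test of each gave a two-sided p of 0.00794, the smallest that 5 samples against 5 allow. The other 4 probes were left out, since fewer than 3 samples of either day detected them. The filter admitted Sntb1 and Sgcd through Day 6 alone, since the tested probe of each was detected in 1 of 5 Day 0 samples. It admitted Sgca probe 3 (2 of 5 Day 0 samples) and Sgcd probe 2 (0 of 5) in the same way. The counts of 4 among the tested genes and 8 among the tested probes, called or separated, are therefore not read against the shares over all genes and probes. With detection required in all 10 samples, 2 members, Sgcb and Dag1, were tested and both were higher. Of the 6532 genes tested under that filter, 20.4% were higher and 25.5% lower.

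**Figure D1:**
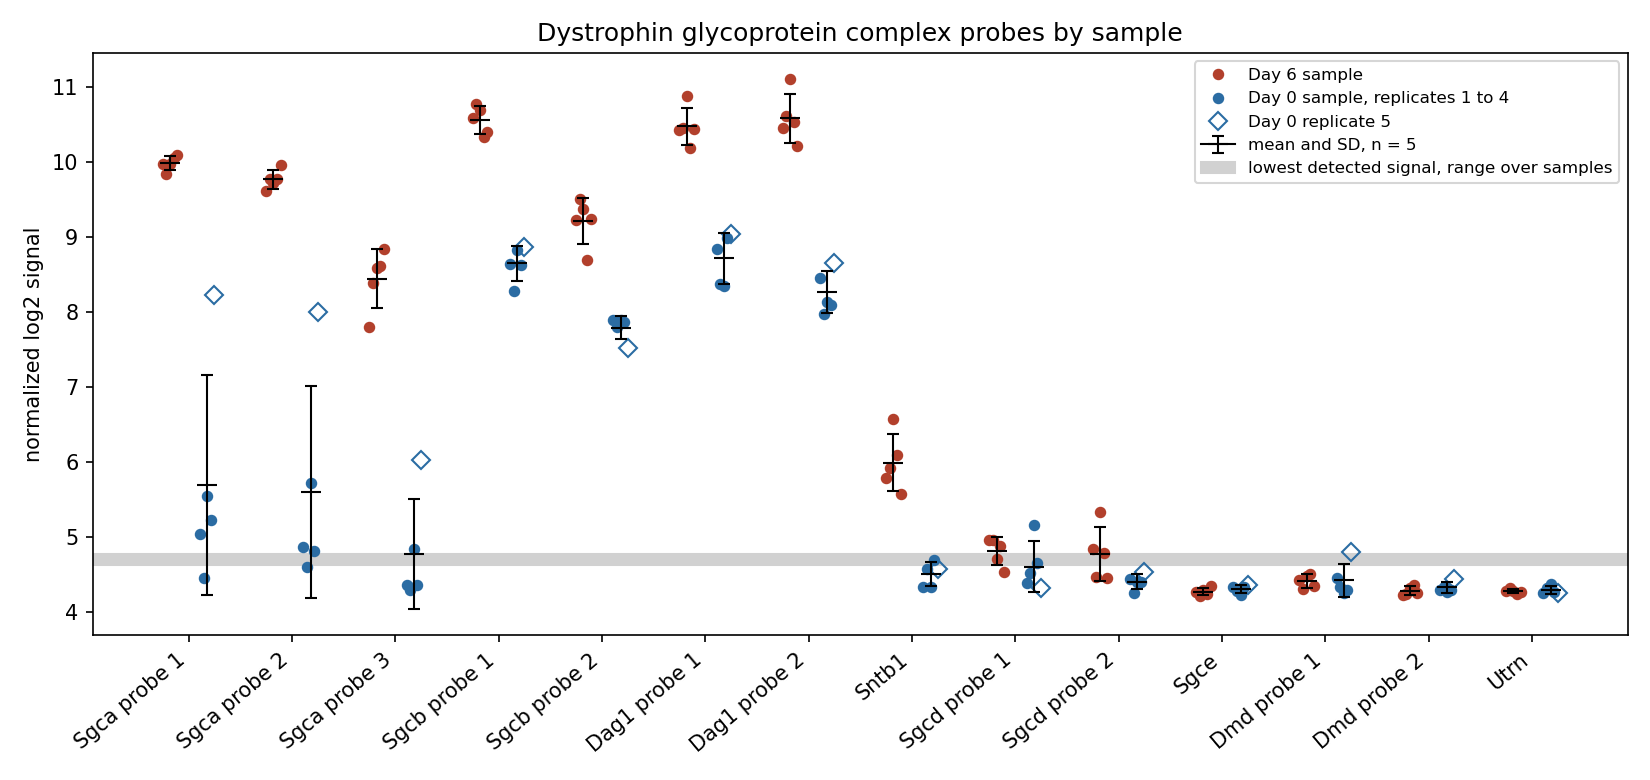
Normalized log2 signal (vertical axis) of the 14 probes (horizontal axis) in each Day 6 sample (red) and Day 0 sample (blue; open diamonds, Day 0 replicate 5), with the mean and SD of 5 samples. The grey band is the range over samples of the lowest signal of a detected probe (4.63 to 4.77); the 8 probes from Sgca to Sntb1 are separated between the days, and the probes of Sgce, Dmd and Utrn lie below the band, apart from Dmd probe 1 in Day 0 replicate 5 (4.80).

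Of the 8 genes, 6 matched an entry in the RefSeq promoter table (GRCm38.p6), and the 250 bases before the start site are shown for the 4 tested genes with an entry, so that the gene with the largest change can be set beside its partners. Capitals mark CANNTG, the E-box core that myogenic factors such as MYOD and MYOG bind, searched on both strands (it reads the same on each). The windows lie at chr11:94976328-94976577 (Sgca), chr5:73647738-73647987 (Sgcb), chr9:108263959-108264208 (Dag1, the more upstream of its 2 entries) and chr11:47379326-47379575 (Sgcd), all on the minus strand, and are written 5′ to 3′.
Sgca: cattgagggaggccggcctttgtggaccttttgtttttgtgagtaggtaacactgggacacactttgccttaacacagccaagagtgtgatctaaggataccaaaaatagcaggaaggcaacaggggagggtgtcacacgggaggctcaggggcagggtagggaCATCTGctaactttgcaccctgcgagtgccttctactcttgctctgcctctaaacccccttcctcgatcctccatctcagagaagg
Sgcb: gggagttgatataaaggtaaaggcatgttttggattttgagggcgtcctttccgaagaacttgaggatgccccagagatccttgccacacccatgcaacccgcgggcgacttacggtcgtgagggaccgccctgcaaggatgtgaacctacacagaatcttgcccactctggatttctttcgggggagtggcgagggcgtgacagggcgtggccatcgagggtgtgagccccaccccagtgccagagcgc
Dag1: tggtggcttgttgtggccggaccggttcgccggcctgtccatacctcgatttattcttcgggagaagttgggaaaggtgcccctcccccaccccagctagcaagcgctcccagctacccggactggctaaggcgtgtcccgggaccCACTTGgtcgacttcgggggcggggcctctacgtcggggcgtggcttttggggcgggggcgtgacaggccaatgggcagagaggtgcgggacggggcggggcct
Sgcd: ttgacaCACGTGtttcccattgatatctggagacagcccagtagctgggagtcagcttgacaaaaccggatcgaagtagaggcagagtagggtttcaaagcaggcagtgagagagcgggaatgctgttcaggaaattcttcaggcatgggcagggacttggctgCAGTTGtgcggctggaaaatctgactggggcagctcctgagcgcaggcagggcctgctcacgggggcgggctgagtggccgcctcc

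CANNTG occurred once in the Sgca window, as CATCTG from 86 to 81 bases before the start site, and once in that of Dag1, as CACTTG from 104 to 99 bases before it. The Sgcd window held 2 matches and the Sgcb window 0. Of 32851 windows of the same length in the table, 66.2% held at least 1 match, so this core is common. CAGCTG, one form of CANNTG, was in none of the 4 windows and in 13.0% of all. GGGCGG (or CCGCCC on this strand), the core of the GC box that SP1 binds, was found 0 times for Sgca, 1 time for Sgcb, 3 times for Dag1 and 1 time for Sgcd, and 32.7% of all windows held it. The Sgca window had 52.8% G or C and 4 CpG, near the medians of all windows (52.4% and 6), whereas the Dag1 window had 67.6% and 21 CpG and the Sgcb window 58.4% and 14 CpG. These matches describe the letters of the windows. Which start site the cells used was not measured on the arrays.

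Sgca encodes α-sarcoglycan, the sarcoglycan confined to striated muscle, and its probes had the largest changes among the 5 tested genes. The tested probe (ILMN_2938154) read 9.98, 9.85, 9.97, 10.05 and 10.09 in the Day 6 samples, against 5.04, 4.46, 5.55, 5.23 and 8.23 in the Day 0 samples. The Day 6 samples lay close together, and the high Day 0 value belonged to replicate 5. The difference of means was 4.29 on the log2 scale with a standard error of 0.52 (adjusted p = 1.8e-05, limma), which is 19.5-fold. As deposited, the signals ran from 817 to 1411 on the Day 6 arrays and from 58.1 to 290 on the Day 0 arrays. Without Day 0 replicate 5 the fold was 30.3, without both E4 samples it was 29.7, and with no background correction it was 10.9. With a background correction that did not use the controls, the log2 change was 3.32.

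The other probes of Sgca moved the same way. Probe 2 (ILMN_1248215) averaged 9.77 ± 0.13 at Day 6 and 5.61 ± 1.41 at Day 0 (SD, n = 5 each), a change of 4.17 (adjusted p = 1.7e-05 from limma). Probe 3 (ILMN_1222601) averaged 8.45 ± 0.39 at Day 6 and 4.78 ± 0.73 at Day 0 (SD, n = 5 each), a change of 3.67 (adjusted p = 6.7e-07 from limma). Its fold was 12.7, against 6.17 with no background correction and 5.54 with a correction that did not use the controls. All 3 probes were detected in the 5 Day 6 samples, and in 4, 4 and 2 of the 5 Day 0 samples (probes 1, 2 and 3). The changes of the 3 probes differed by 0.12 to 0.62, and no pair passed the exact permutation test after adjustment over the 6 pairs of probes of 1 gene (adjusted p of 0.274 to 0.429). Probe 3 was at background in most Day 0 samples, which limits its Day 0 mean, its SD and its change. The pairs with probe 3 therefore cannot show whether the probes moved equally. The genes whose values over the 10 samples ran most like those of Sgca, by Pearson's r across the genes tested, were Ryr1 (r = 0.999), the calcium release channel of the sarcoplasmic reticulum, Tnnc1 (0.998), a troponin C, and Actc1 (0.998), an actin of the sarcomere. These correlations are descriptions, since the 10 samples fall into 2 days and share their arrays.

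Sgcb encodes β-sarcoglycan, which is made in many tissues and forms the core of the sarcoglycan assembly with δ-sarcoglycan. The tested probe (ILMN_1222716) read 10.59, 10.77, 10.69, 10.33 and 10.40 at Day 6, against 8.64, 8.29, 8.83, 8.63 and 8.87 at Day 0. It was already well detected in every Day 0 sample, and the days did not overlap. The change was 1.90 with a standard error of 0.15 (adjusted p = 4.6e-07, limma), which is 3.74-fold. Probe 2 (ILMN_1255256) read 9.23, 9.50, 9.38, 8.70 and 9.24 at Day 6, against 7.89, 7.80, 7.89, 7.86 and 7.52 at Day 0. Its change was 1.41 (2.66-fold, adjusted p = 1.3e-05 from limma), 0.49 below that of the tested probe (exact permutation test of that difference, two-sided p = 0.0317, adjusted p = 0.0952). Day 0 replicate 5 was the highest Day 0 sample with probe 1 and the lowest with probe 2.

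Sgcd encodes δ-sarcoglycan, the partner of β-sarcoglycan in that core. Its tested probe (ILMN_2605539) read 4.96, 4.97, 4.71, 4.89 and 4.54 at Day 6, against 4.39, 4.53, 5.17, 4.65 and 4.32 at Day 0. The days overlapped, with the highest value in Day 0 replicate 3, and the probe was detected in 4 of 5 Day 6 samples and 1 of 5 Day 0 samples. The change was 0.20 (95% confidence interval -0.18 to 0.58, adjusted p = 0.376 from limma). Probe 2 (ILMN_2696134), detected in 3 Day 6 samples and 0 Day 0 samples, averaged 4.78 ± 0.36 at Day 6 and 4.41 ± 0.10 at Day 0 (SD, n = 5 each). Its change of 0.37 (95% confidence interval 0.00 to 0.74) did not pass the adjusted test (adjusted p = 0.0961 from limma). It did so in only 1 alternative, without both E4 samples (0.49, adjusted p = 0.0444 from limma). Both probes lay at the detection limit, and the intervals are those of the measured signals.

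Sgce encodes ε-sarcoglycan, the closest relative of α-sarcoglycan, which is also made outside muscle. Its probe (ILMN_2648265) was detected in 0 of 5 Day 6 samples and 0 of 5 Day 0 samples, at 4.22 to 4.35 at Day 6 and 4.23 to 4.36 at Day 0. These values lie below the lowest detected signals and overlap throughout, and they carry no fold change.

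Dag1 encodes the precursor that is cut into α-dystroglycan, the laminin receptor, and β-dystroglycan, its membrane anchor. The tested probe (ILMN_2724585) read 10.43, 10.45, 10.88, 10.18 and 10.45 at Day 6, against 8.84, 8.37, 8.35, 8.99 and 9.04 at Day 0. Every Day 6 sample lay above every Day 0 sample, and the probe was detected in all 10. The change was 1.76 with a standard error of 0.18 (adjusted p = 4.8e-06, limma), which is 3.38-fold. Probe 2 (ILMN_2853957) read 10.45, 10.62, 11.10, 10.54 and 10.21 at Day 6, against 8.46, 7.98, 8.14, 8.09 and 8.65 at Day 0. This probe gave 5.00-fold, a change of 2.32 (adjusted p = 4.6e-07 from limma). The gap of -0.56 between the changes of the 2 probes (probe 1 minus probe 2) had a two-sided p of 0.0159 in the exact permutation test and an adjusted p of 0.0952.

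Sntb1 encodes β1-syntrophin, an adaptor that binds dystrophin and utrophin. Its single probe (ILMN_2735938) read 5.79, 5.92, 6.58, 6.10 and 5.58 at Day 6, against 4.34, 4.58, 4.34, 4.69 and 4.58 at Day 0. It was detected in all 5 Day 6 samples and, at Day 0, only in replicate 4. Its change was 1.49 with a standard error of 0.18 (adjusted p = 1.9e-05, limma), which is 2.80-fold. The Day 0 signals lay at the background. The fold was 1.77 with no background correction and 1.67 with a correction that did not use the controls.

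Dmd encodes dystrophin, and Utrn encodes utrophin, which can occupy the same place at the membrane. Dmd probe 1 (ILMN_2672006) read 4.43, 4.31, 4.49, 4.52 and 4.35 at Day 6, against 4.46, 4.33, 4.26, 4.29 and 4.80 at Day 0. It was detected only in Day 0 replicate 5, where the mean detection p of the 2 arrays was 0.0345. Dmd probe 2 (ILMN_2433876) lay between 4.23 and 4.37 at Day 6 and between 4.27 and 4.45 at Day 0. The Utrn probe (ILMN_2475832) lay between 4.25 and 4.33 at Day 6 and between 4.26 and 4.37 at Day 0. Neither was detected in any sample. As deposited, the signals of these 3 probes were 45.2 to 60.6 on the Day 6 arrays and 47.2 to 60.6 on the Day 0 arrays. The part of the transcript that each probe reads is not given in the sources used here. A signal not above background says that these probes did not measure the transcripts, and no fold change of Dmd or Utrn is given.

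**Figure D2:**
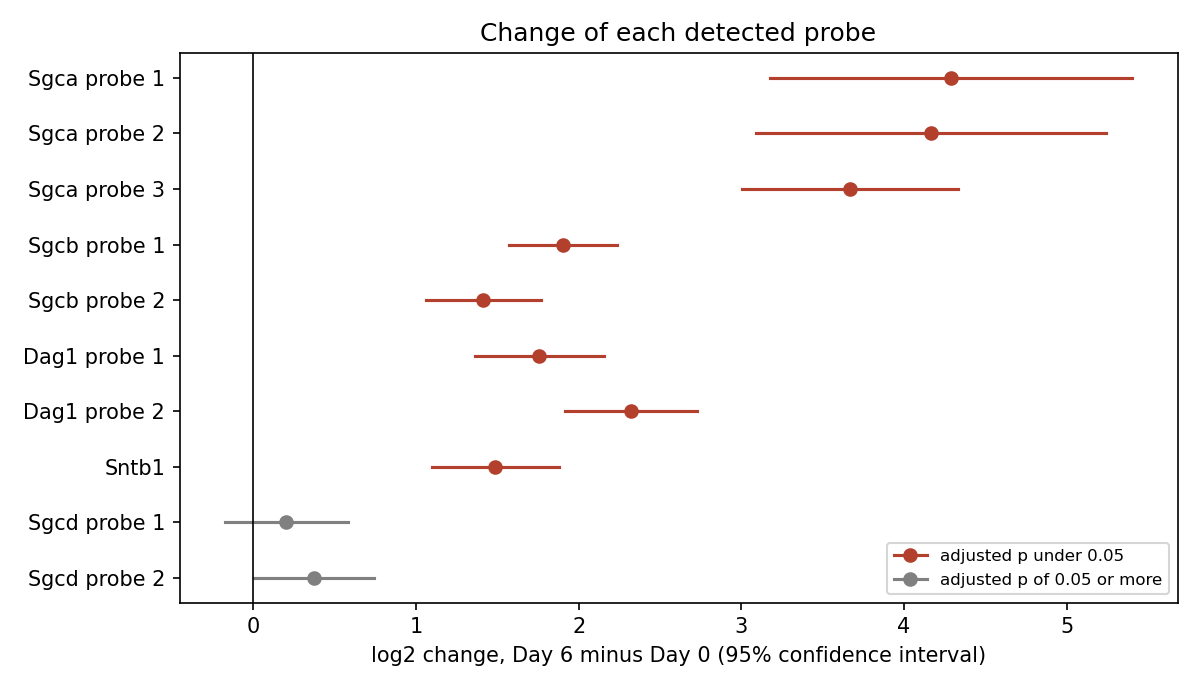
Log2 change, Day 6 minus Day 0 (horizontal axis), with its 95% confidence interval from limma, of the 10 tested probes (vertical axis); red marks an adjusted p under 0.05. The 3 Sgca probes lie between 3.67 and 4.29, the probes of Sgcb, Dag1 and Sntb1 between 1.41 and 2.32, and the 2 Sgcd probes at 0.20 and 0.37.

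Sgca and Sgcb, each detected in most samples of both days, were compared within arrays to test whether they moved by equal amounts. This pair was 1 of 6 computed, and the other 5 each hold a gene at background (Sgcd, Sgce, Dmd or Utrn) and are not given. Sgca rose more than Sgcb: the log2 ratio of their signals lay between -0.92 and -0.28 in Day 6 samples and between -3.82 and -0.64 in Day 0 samples, a difference of 2.39 (exact permutation test, two-sided p = 0.0238). Its adjusted p over the 6 pairs was 0.0286, which rests on the pairs at background and is not read. Sgca read 4.46 to 5.55 in Day 0 replicates 1 to 4, near the detection limit. The difference was 1.64 with no background correction and 1.53 with a correction that did not use the controls. The highest Day 0 ratio was that of replicate 5, and the ranges overlapped.

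Day 0 replicate 5 carried muscle transcripts that the other Day 0 samples had at a lower level. For Sgca it exceeded the mean of the others by 1.56 to 3.16 over the 3 probes, on both of its arrays (8.27 and 8.18 for probe 1). Beside it, the 6 myotube marker genes on the array, all detected in at least 3 Day 6 samples and 5 of them in at least 3 Day 0 samples, had a summed signal between 43112 and 54232 in Day 6 samples. In Day 0 samples it lay between 258 and 11689, where 11689 was replicate 5 and the others reached at most 2874. The part of these transcripts in the Sgca values was not tested. On the log2 scale the other members called higher followed less: the excess of replicate 5 was 0.41 and 0.48 for Dag1, 0.27 and -0.34 for Sgcb and 0.10 for Sntb1. Drp2, a further gene of the complex, read 8.56 in replicate 5, against 6.98 to 7.56 in the other Day 0 samples and a Day 6 mean of 8.84. Without this sample the fold was 3.58 for Dag1, 3.88 for Sgcb and 2.84 for Sntb1, close to the values with it.

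Within E1 to E4 the sign of the difference held for each probe called higher, with only 1 or 2 samples a day in each, and with no test. The tested Sgca probe differed between the days by 5.23, 4.30, 4.79 and 1.86 in E1, E2, E3 and E4, and E4 holds Day 0 replicate 5. Dag1 differed by 1.82, 2.10, 1.53 and 1.40, Sgcb by 2.12, 1.94, 1.88 and 1.53, and Sntb1 by 1.33, 1.58, 1.65 and 0.99. The tested Sgcd probe differed by 0.51, -0.20, 0.14 and 0.22, so its sign was not the same in all 4.

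**Figure D3:**
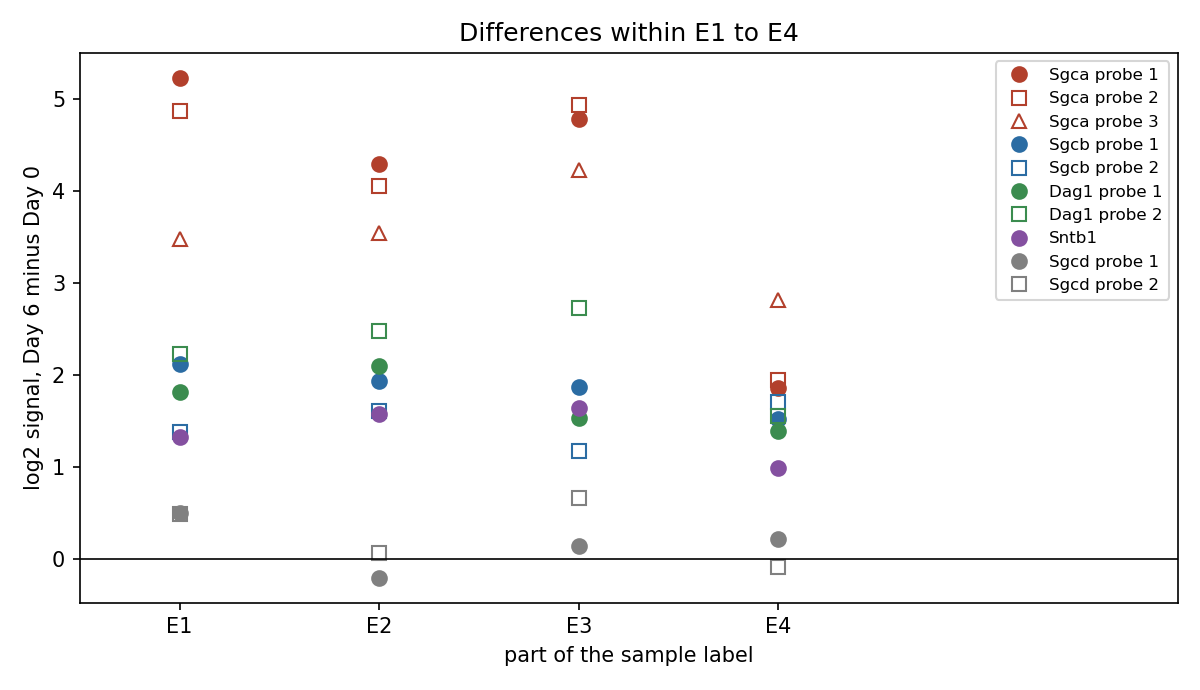
Difference in log2 signal, Day 6 minus Day 0 (vertical axis), of the 10 tested probes within E1, E2, E3 and E4 (horizontal axis). The Sgca probes (red) lie between 3.48 and 5.23 in E1 and between 1.86 and 2.82 in E4, and all differences of Sgcb (blue), Dag1 (green) and Sntb1 (purple) lie between 0.99 and 2.73.

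Markers of other cell types were mostly undetected, and some of those detected were higher at Day 6. A marker is called undetected here where fewer than 3 samples of either day detected it. Each summed signal takes in all markers of a list on the array, undetected ones included. Of 6 adipocyte markers, Adipoq, Fabp4, Plin1, Cebpa and Cidec were undetected and Lpl, lipoprotein lipase, was higher by 1.08 (summed signal between 470 and 983 in Day 6 samples and between 253 and 490 in Day 0 samples). Of 5 osteoblast markers, Sp7, Ibsp and Dmp1 were undetected Bglap, osteocalcin, was higher by 2.73 and Alpl was not called (-0.12) (between 316 and 401 in Day 6 samples and between 133 and 183 in Day 0 samples). Of 6 fibroblast markers, Dpt and Tcf21 were undetected, Pdgfra was higher by 0.64, Pi16 was higher by a factor of at least 2.71, with no Day 0 array detecting it, and Col1a1 (1.65) and Col1a2 (-0.12) were not called (between 285 and 1029 in Day 6 samples and between 199 and 358 in Day 0 samples). Of 5 smooth muscle markers, Myh11 and Cnn1 were undetected, desmin (Des), which skeletal muscle also makes, was higher by 1.51, and Smtn (0.58) and Acta2 (0.42) were not called (between 25739 and 33288 in Day 6 samples and between 12672 and 31178 in Day 0 samples). For the adipocyte, fibroblast and smooth muscle lists, the highest Day 0 sum was that of replicate 5. Among the other Day 0 samples these sums reached at most 455, 262 and 18844. Of 4 endothelial markers, Pecam1 and Cdh5 were undetected and none was called (between 99.0 and 115 in Day 6 samples and between 89.4 and 109 in Day 0 samples). Both Schwann and neural markers were undetected. The proliferating myoblast markers, of which Myf5 was undetected, had summed signals between 343 and 655 in Day 6 samples and between 3501 and 3797 in Day 0 samples. The part of these cell states in the changes of the complex was not tested.

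Of 10 further genes of the complex with a probe, 6 were tested: 3 rose, 1 fell and 2 were not called (median change 0.81). Over all genes tested, 21.1% were higher and 24.2% lower. The filter admitted Cav3, which rose, through Day 6 alone and Dtnb, which fell, through Day 0 alone, so these counts are not read against the shares. Dtna, α-dystrobrevin, a cytoplasmic partner of dystrophin, averaged 8.70 ± 0.40 at Day 6 and 6.29 ± 0.24 at Day 0 (SD, n = 5 each), a change of 2.41 (adjusted p = 5.6e-07 from limma). Of its other probes, 2 rose by 2.87 and 0.91, and 1 near background had a change of 0.22 (adjusted p = 0.346 from limma). Dtnb, β-dystrobrevin, the form known from tissues other than muscle, was detected in all 5 Day 0 samples and on no Day 6 array, and was at least 1.52-fold lower at Day 6 (adjusted p = 7.8e-05 from limma). The dystrobrevin transcripts moved in opposite directions.

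Cav3, the muscle caveolin, which binds dystroglycan, read 5.36, 6.50, 6.82, 7.13 and 7.33 at Day 6 and was undetected on every Day 0 array (4.19 to 4.38), so that it was at least 3.84-fold higher at Day 6 (adjusted p = 2.3e-05 from limma). A lower bound here sets the Day 6 mean against the lowest signal of a detected probe. Drp2, a dystrophin-related protein, averaged 8.84 ± 0.08 at Day 6 and 7.49 ± 0.64 at Day 0 (SD, n = 5 each), a change of 1.35 (adjusted p = 0.00066 from limma), and its highest Day 0 value was that of replicate 5 (8.56). Sntb2, β2-syntrophin, had a change of -0.41 (adjusted p = 0.161 from limma), while its second probe fell by 0.78 (adjusted p = 0.0016 from limma). Nos1, the nitric oxide synthase that syntrophin anchors, had a change of 0.26 (adjusted p = 0.166 from limma). Sspn, Sgcz, Sntg1 and Sntg2 were detected in no sample.

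The lists around the complex are given by their counts, beside 21.1% higher, 24.2% lower and a median change of -0.03 over all genes tested. The lists were not tested against each other. Of 14 tested costamere partners, which tie the complex to the sarcomere's Z-disc, 10 rose and 0 fell (median change 1.01). Csrp3, the muscle LIM protein, rose by 5.36 and Trim72, a membrane repair protein, by 4.72. Ldb3, a Z-disc protein, rose by 3.80 and Sync, a partner of desmin and dystrobrevin, by 2.12. The days overlapped for Trim72, whose Day 0 samples had an SD of 2.55. The filter admitted Csrp3 and Ldb3 (each detected in 2 of 5 Day 0 samples) and a further riser (0 of 5) through Day 6 alone. The count of 10 is therefore not read against the share over all genes. Of 12 tested matrix genes, which include the laminins that dystroglycan binds, 5 rose and 3 fell (median change 0.44). Lama2, the laminin α2 chain of muscle, rose by 2.45, Nid2 by 1.75 and Bgn, biglycan, by 1.36, and the basement membrane protein Nid1 fell by 2.31. Nid2 and Bgn overlapped between the days.

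Of 11 tested genes for the sugar chains of dystroglycan, 3 rose and 1 fell (median change 0.16), a count of higher genes near the 21.1% over all genes tested. Pomgnt2 and B4gat1, enzymes that build the laminin-binding chain, rose by 1.02 and 0.998, Dpm1, a subunit of the synthase of the mannose donor, rose by 0.70, and Dpm2, another subunit of it, fell by 0.52. Pomgnt2 and Dpm2 overlapped between the days. Of 11 tested genes of the integrin link, the other connection of muscle to laminin, 2 rose and 3 fell (median change -0.06), close to the 21.1% higher and 24.2% lower over all genes tested. Itga7, the integrin chain that binds laminin, rose by 1.52 and Fermt2, a kindlin, by 0.62, while Parva fell by 0.62 and Ilk, the integrin-linked kinase, by 0.47. Itga7 and Fermt2 overlapped between the days.

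**Figure D4:**
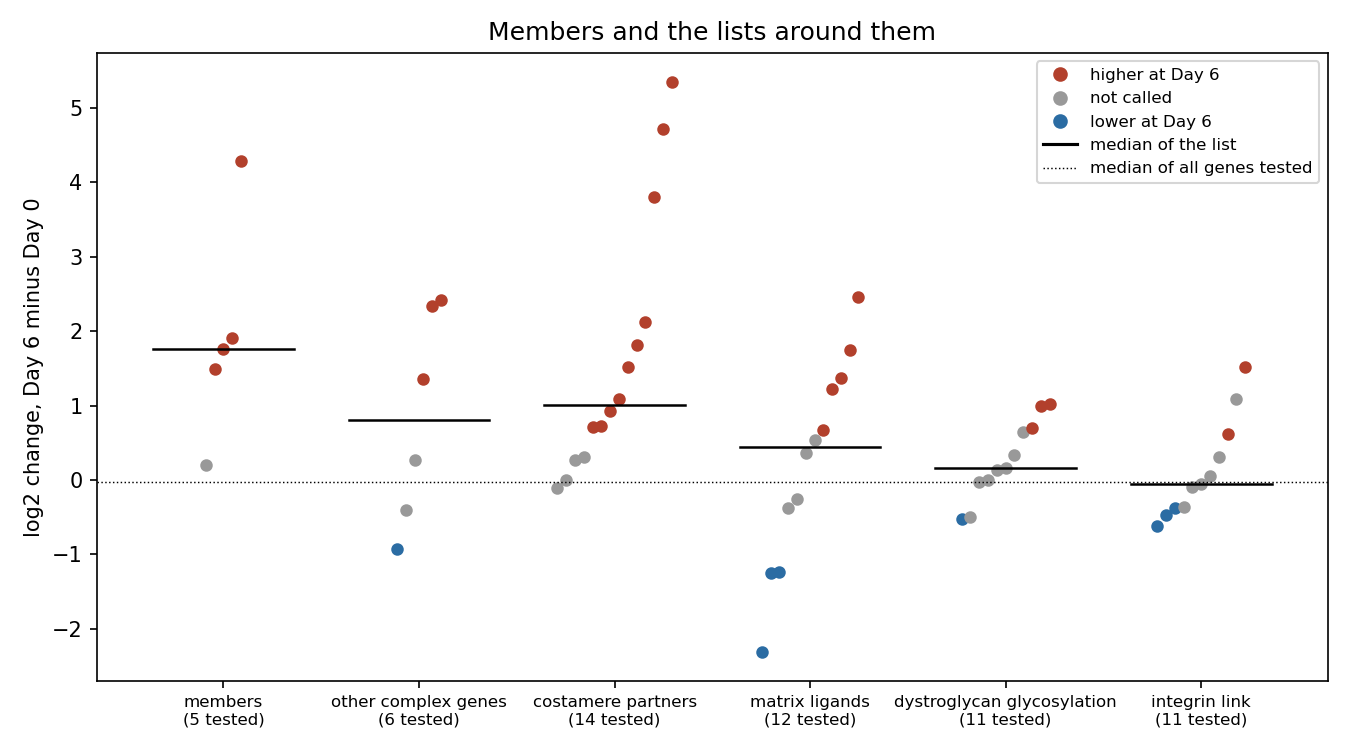
Log2 change, Day 6 minus Day 0 (vertical axis), of each tested gene among the 5 tested members and the lists around them (horizontal axis), coloured by its call; bars are list medians and the dotted line is the median of all genes tested (-0.03). The median is 1.76 for the members, 0.81 for the other genes of the complex, 1.01 for the costamere partners, 0.44 for the matrix ligands, 0.16 for the glycosylation genes and -0.06 for the integrin link.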

How the data were processed

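The authors extracted probe signals, an intensity per probe, and a detection p-value with GenomeStudio 2011.1. These deposited intensities carry no background subtraction and no normalization between arrays. The deposited score, a Z-score of log signals within an array, served as an alternative. Probes were named through the platform annotation.

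Signals were background-corrected with neqc (offset 16, controls inferred from the detection p), quantile normalized and put on the log2 scale (limma 3.58.1 in R 4.3.3). Day 6 was compared with Day 0 by lmFit and eBayes over all genes, and over all probes, with Benjamini-Hochberg adjustment. An adjusted p of a tested probe is that of the gene fit and of a further probe that of the probe fit. Steps were tested on simulated data. Plots used Python 3.11.15 and matplotlib 3.10.9. The number of arrays limits the precision.

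The members and lists were chosen with earlier results of these data known. The genes named were all members, every tested gene of the list of further complex genes, up to 4 called genes of each other list with the largest change, the 3 genes most like Sgca, and the label checks. The alternatives were other background corrections, equal array medians, the Z-scores, other detection filters, 1 of the arrays of Day 0 replicate 5 alone, a replicate block, a block for E1 to E4, a robust variance trend, the most variable probe of a gene, and samples left out.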

Additional observations from a re-analysis of the deposited data

Results flagged for a closer look

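Among the 5 samples of a day, 2 of the 20 groups of values checked (10 tested probes on 2 days) held a sample set far from the rest, and chance flags about 1 in 20 groups. Both were Day 0 replicate 5. The groups share the same samples, so they are not independent. For Sgca probe 1 it read 8.23, and the next Day 0 value was 5.55, a gap of 0.711 of the range, barely above the cutoff of 0.71. Sgca probes 2 and 3 were not flagged, though replicate 5 was their highest Day 0 sample too. For Sgcb probe 2 it read 7.52, below the next value of 7.80, a gap of 0.754 of the range.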

How the results depend on the processing

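Over 23 alternatives, none of Sgca, Sgcb, Dag1 and Sntb1 reversed its direction or lost its call where it was tested, and Sgcd was called in none at the gene level. The further genes of the complex were not rerun. With equal array medians in place of quantile normalization, 1155 genes and 1627 probes were higher, against 1825 and 2620, the called genes were 35.8% higher rather than 46.5%, and the median over all genes was -0.13 in place of -0.03. With detection required in all 10 samples, 2 members and 4 of their probes were higher, since Sgca, Sgcd and Sntb1 no longer had a tested probe. Sgcd probe 2 was called in only 1 alternative, without both E4 samples (0.49, adjusted p = 0.0444 from limma). No Day 0 sample detected that probe, so the call sets Day 6 against background. With 1 sample left out at a time, the change ran from 3.98 to 4.92 for Sgca, 1.81 to 1.96 for Sgcb, 1.66 to 1.84 for Dag1 and 1.34 to 1.59 for Sntb1, and 4 members were higher each time.

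The numbers of the replicates did not pair the samples: the deviations of same-numbered samples correlated at -0.24 to 0.19, and only number 5 correlated best with its own. With the replicate block, 1710 genes were higher and 1992 lower, with 4 members higher. Probes at background limit the depth: Sgce, Dmd and Utrn have no measured level, and Sgcd and the Day 0 level of Sntb1 lie at that limit.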
